A study of Mus musculus with 4 samples.

Results

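A set of 5 genes that are read in the mouse embryo at the 2-cell stage, AF067061, Usp17la, Arg2, Sp110 and Zfp352, are described here in embryonic stem (ES) cells with a knockdown of Brg1. They are 5 of the 12393 genes with a probe set of their own on the array. They were chosen because their signal was higher in the knockdown, so the difference between knockdown and control is given for them as a description, and no test of it is used as evidence. Every probe set that the platform annotation gives to 1 of the 5 genes was taken, which gave 9 probe sets. A further 3 probe sets that list several genes were added, since they name Usp17lc, Usp17ld or Gm4027.

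All samples were R1 mouse ES cells, an established line, infected with a lentivirus that carries a short hairpin RNA (shRNA) and harvested 67 h later. The hairpin was directed against Brg1 in 2 samples and against the glucose transporter GLUT4 in the other 2, which served as the control, and each sample was read on 1 Affymetrix array. Brg1, encoded by Smarca4, is an ATPase subunit of the SWI/SNF chromatin remodelling complexes. Cells were infected in duplicate per the series' design text, and nothing states that the duplicates came from separate starting cultures, so p-values measure only the spread between these samples.

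At the 2-cell stage the mouse embryo begins to transcribe its own genome, and a set of genes and retroviral elements is read in a short burst and then silenced. Cultured ES cells are mostly silent for this set, but a small and changing fraction of them enters a 2-cell-like state in which it is read again. The transcription factor DUX activates much of the set, DPPA2 and DPPA4 act upstream of Dux, and silencing involves TRIM28, SETDB1, KDM1A and other chromatin proteins. In these bulk samples, more cells in such a state and more RNA per cell cannot be told apart.

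The arrays had been scaled to a common trimmed mean of 200.1 signal units, and their median signals lay between 46.6 and 50. Smarca4 gave 652.1 and 621.5 with the Brg1 hairpin and 1186.6 and 1213.6 with the control hairpin. The groups did not overlap, and the log2 difference, knockdown minus control, was -0.89 with an SE of 0.08 (adjusted p = 0.000232 by limma). The filter level is a mean over the 4 arrays, taken on the log2 scale, that equals 23.9 signal units. All 12 ES cell markers examined were above it in the probe set chosen for each, with signals of 164.6 or more on each array. Of these 12, 4 rose and 1 fell, where 9.33% of all tested genes rose and 5.09% fell. Nanog had 1040.0 and 1003.1 in the knockdown against 564.7 and 533.6 (0.87, adjusted p = 0.000299), and Klf4 350.8 and 308.5 against 164.6 and 210.3 (0.76, adjusted p = 0.00554). Esrrb (0.38) and Fgf4 (0.52) rose as well, and Lin28a fell by 0.38. Among their further probe sets, that of Klf4 differed by 0.81 and those of Fgf4 by 0.51, 0.35 and -0.12. The second one of Esrrb differed by -0.04, and that of Lin28a overlapped between the groups (-0.10). Of 15 fibroblast markers, which would mark feeder cells, 11 lay below the filter, and Col1a1, Col3a1, Postn, Dcn, Lum and Pdgfrb were among those 11. The summed signal of the 15 was 1747.2 and 1821.7 in the knockdown and 1142.3 and 1276.6 in the control, and most of the difference was that of Vim (1152.6 and 1165.4 against 504.5 and 556.9). Of the other 3 tested, none passed. Thy1 (20.8 and 29 against 36.7 and 48.3) and Tagln (360.5 and 360.3 against 402.1 and 504.1) were lower in the knockdown without overlap, and Acta2 (103.7 and 119.5 against 92.2 and 77.5) was higher. Among the 11 dim ones, Postn and Fap were higher in the knockdown without overlap, and Col1a1, Col3a1 and Pdgfra were so in 1 of their 2 probe sets each. Col5a2 had 1 probe set higher and 1 lower, and Col1a2, Dcn, Lum, S100a4 and Pdgfrb overlapped. The part of the ES cell and fibroblast markers in the results below was not tested.

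Promoter windows of the genes, from 250 bases before to 50 bases after the annotated start, are shown because several of them share sequence. RefSeq windows (GRCm38.p6) were matched by symbol for 4 of the 5 genes, AF067061, Usp17la, Sp110 and Zfp352; the other is Arg2. Sp110 had 2 windows, and the one upstream of the other is printed. The windows of AF067061, Sp110 and Zfp352 follow, with each copy of the longest run of letters common to all 3 in capitals.
AF067061, chr13:120262845-120263144, + strand: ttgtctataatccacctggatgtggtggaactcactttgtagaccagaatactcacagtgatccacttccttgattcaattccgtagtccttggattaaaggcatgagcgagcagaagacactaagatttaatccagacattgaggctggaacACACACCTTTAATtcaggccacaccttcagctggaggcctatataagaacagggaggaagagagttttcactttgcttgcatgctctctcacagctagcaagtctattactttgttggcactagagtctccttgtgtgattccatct
Sp110, chr1:85603842-85604141, - strand: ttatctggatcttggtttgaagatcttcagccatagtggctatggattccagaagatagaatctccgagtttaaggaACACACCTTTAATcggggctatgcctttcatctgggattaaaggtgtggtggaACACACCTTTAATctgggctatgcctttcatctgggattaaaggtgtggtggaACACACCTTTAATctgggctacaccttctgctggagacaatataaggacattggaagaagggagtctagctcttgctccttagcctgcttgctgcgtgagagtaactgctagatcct
Zfp352, chr4:90218570-90218869, + strand: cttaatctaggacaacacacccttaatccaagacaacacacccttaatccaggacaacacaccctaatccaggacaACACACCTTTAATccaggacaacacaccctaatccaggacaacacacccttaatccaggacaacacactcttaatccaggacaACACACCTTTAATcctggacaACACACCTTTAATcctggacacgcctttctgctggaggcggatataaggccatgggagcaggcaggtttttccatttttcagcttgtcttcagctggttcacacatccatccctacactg

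The common run was ACACACCTTTAAT, of 13 bases. It occurred once in the window of AF067061, with its first base 97 bases upstream of the start. In the printed window of Sp110 it occurred 3 times, 173, 120 and 67 bases upstream, and in Zfp352 3 times, 174, 91 and 70 bases upstream. The other window of Sp110 did not hold it, and its longest run shared with AF067061 was 7 bases. On either strand, 43 of the 32851 windows in the table (0.131%) held it, and these belonged to 42 genes. The letters TATAA lay 27 bases upstream of the start in the printed Sp110 window and 28 bases upstream of the Zfp352 start. In AF067061 they lay 56 and 245 bases upstream, and 24.9% of all windows held them on either strand. The run was picked from these same windows, so its rarity is a description and no test.

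The windows of Usp17la and its relative Usp17ld are shown because they are alike outside any short motif, with their longest common run, of 76 bases, in capitals.
Usp17la, chr7:104856766-104857065, + strand: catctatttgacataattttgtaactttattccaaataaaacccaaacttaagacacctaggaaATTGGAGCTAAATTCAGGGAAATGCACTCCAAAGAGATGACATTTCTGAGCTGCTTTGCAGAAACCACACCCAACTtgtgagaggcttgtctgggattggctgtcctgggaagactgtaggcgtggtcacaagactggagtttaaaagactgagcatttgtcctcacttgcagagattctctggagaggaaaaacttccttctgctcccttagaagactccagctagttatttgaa
Usp17ld, chr7:103252456-103252755, - strand: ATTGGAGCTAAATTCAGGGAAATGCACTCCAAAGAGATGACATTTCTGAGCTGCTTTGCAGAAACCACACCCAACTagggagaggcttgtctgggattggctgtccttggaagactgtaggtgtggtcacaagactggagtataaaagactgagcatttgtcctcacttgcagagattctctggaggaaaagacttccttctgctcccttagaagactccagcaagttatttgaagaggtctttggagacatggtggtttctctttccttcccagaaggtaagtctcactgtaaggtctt

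Set side by side without gaps, these windows were identical at 83.1% of 236 bases. The window of Usp17lc was identical to that of Usp17la at 82.9% of 258 bases and to that of Usp17ld at 96.8% of 278 bases. The window of Gm4027, whose probe set is described below, has in capitals a match to TGATTNAAT, a shortened form of the DUX motif.
Gm4027, chr12:87618659-87618958, + strand: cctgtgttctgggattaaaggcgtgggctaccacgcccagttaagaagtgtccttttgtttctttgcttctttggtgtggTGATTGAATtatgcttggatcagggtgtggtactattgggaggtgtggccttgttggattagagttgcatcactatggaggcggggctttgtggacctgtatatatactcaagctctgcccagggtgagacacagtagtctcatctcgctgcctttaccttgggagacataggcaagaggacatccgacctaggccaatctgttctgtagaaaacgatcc

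This form was chosen after the windows had been read. It was searched on both strands, does not overlap the other letters marked here, and was in 236 of the 32851 windows (0.718%). It began 170 bases upstream of the Gm4027 start, 129 bases upstream of the start of its close relative BB287469, and 179 bases upstream of the AF067061 start. The Gm4027 and BB287469 windows were identical at 99.6% of 259 bases.

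**Figure D1:**
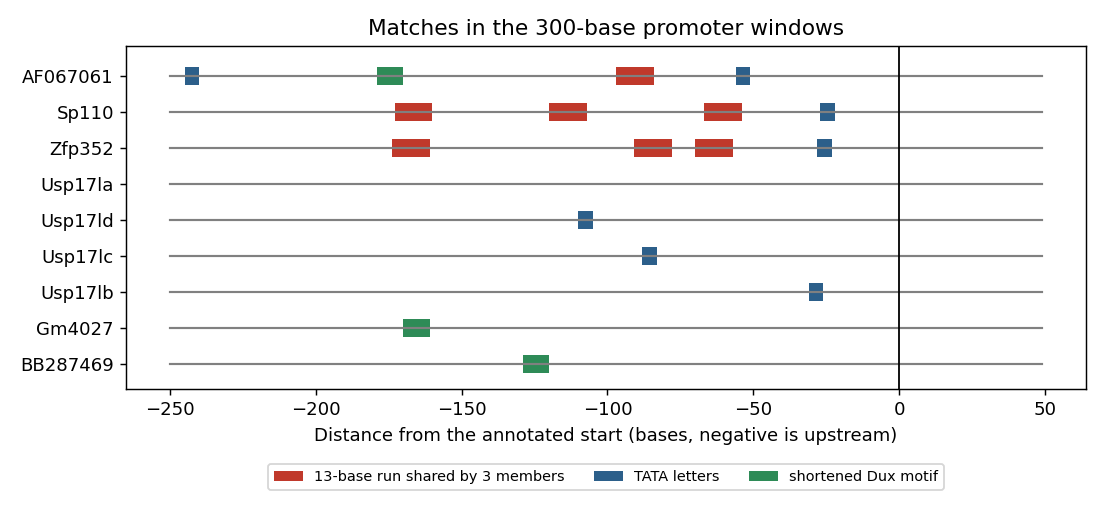
Matches in the 300-base promoter windows of 9 genes, by distance from the annotated start in bases; red bars are the run shared by AF067061, Sp110 and Zfp352, blue bars the letters TATAA and green bars the shortened DUX motif. The printed window of Sp110 and that of Zfp352 hold the run 3 times each and AF067061 once, and the Usp17 windows do not hold it. The other Sp110 window, which lacks the run, is not drawn.

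AF067061, a protein-coding gene known from 2-cell embryos, had the largest rise of all. Its signal was 914.4 and 1006.4 in the knockdown and 3.4 on each control array, so the groups lay far apart. On the log2 scale, with 20 signal units added to every signal, the difference was 5.39, or 41.9-fold. This was the largest rise among 22626 probe sets and among the 7815 genes at or above the filter level. In the control the gene lay at the 12.3rd percentile of all probe sets and in the knockdown at the 93.2nd. The gene has a single probe set, of the kind ending in _x_at, which can bind several transcripts, so part of the signal may come from relatives of the gene.

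The next rise belonged to the Usp17 family, deubiquitinases that remove ubiquitin from proteins. Usp17la had signals of 482.2 and 495.4 in the knockdown and 14.4 and 20.6 in the control. The knockdown arrays were close to each other, 0.04 apart on the log2 scale, and the control arrays lay 0.24 apart. The log2 difference of 3.77, or 13.6-fold, was the second among all probe sets. The probe sets shared by Usp17lc and Usp17ld were much dimmer. One gave 29.9 and 47.8 against 15.3 and 1.2 (log2 difference 1.09), and the other 18.9 and 21.2 against 7.1 and 3.4 (0.67). In both the knockdown arrays were the higher without overlap, but the control arrays of the first lay 0.74 apart. The sequences of the family are alike, and how the signal divides among its genes cannot be told from these probe sets.

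The third rise among all probe sets was that of a probe set listing Gm4027, BB287469 and Eif1a. Its signals were 543.9 and 483.6 in the knockdown and 48.0 and 49.7 in the control, a log2 difference of 2.95 or 7.74-fold. It was the one member probe set whose mean control signal exceeded the filter level. Eif1a, a translation initiation factor gene used in all cells, has probe sets of its own, and they moved little. The brighter gave 797.7 and 899.8 against 767.7 and 734.7 (log2 difference 0.17 ± 0.09, SE; limma, adjusted p = 0.224). The dimmer gave 614.6 and 438.8 against 594.0 and 633.4 (-0.23; adjusted p = 0.33 from a fit of all probe sets). Neither passed the test, and their direction differed.

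Arg2 encodes the mitochondrial arginase, which splits arginine into ornithine and urea. One probe set gave 45.1 and 57 in the knockdown against 8.1 and 8.7 in the control, a log2 difference of 1.32 or 2.49-fold. The second gave 31.4 and 28.4 against 3.8 and 4.9, a difference of 1.03. The probe sets thus agreed in direction and nearly in size, and in neither did the groups overlap. Arg1, the cytosolic arginase, was at 0.8 and 1.4 against 0.4 and 1.4 and lay below the filter. Among 16 other tested genes of arginine and polyamine metabolism, 2 rose, 0 fell and 14 did not pass limma's test, where 9.33% of all tested genes rose. At an unadjusted p under 0.05 there were 3 higher and 1 lower. Their median log2 difference was 0.01, against 0.04 for all tested genes. Those that rose were Sat1 and Smox. Sat1, which acetylates spermidine and spermine, had signals of 695.6 and 614.5 against 406.0 and 349.4 (0.76 ± 0.11, adjusted p = 0.00195). Smox, spermine oxidase, had 115.8 on each knockdown array against 65.3 and 62.3 (0.70 ± 0.13, adjusted p = 0.00786). Aldh18a1, the 1 lower at an unadjusted p, had 256.9 and 184.6 against 259.2 and 330.3 (-0.39 ± 0.16, adjusted p = 0.125). Aldh18a1 did pass as lower with the mean of all probe sets (adjusted p = 0.0484), and with spike-in scaling it came to -0.11 (adjusted p = 0.723).

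Sp110 encodes a nuclear body protein of the SP100 family and is known as inducible by interferon. Its brightest probe set gave 41.9 and 59.3 in the knockdown against 19.8 and 5.9 in the control, a log2 difference of 1.13 or 2.18-fold. The groups did not overlap, although the control arrays differed by 0.62 on the log2 scale. The other 2 probe sets of the gene stayed between 0.7 and 2.8 on all 4 arrays, near the bottom of the signal range, and their groups overlapped (log2 differences 0.05 and 0.02). The rise of Sp110 therefore rests on 1 of 3 probe sets.

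Interferon-response and SP100 family genes moved both ways. Of 14 other tested genes, 1 rose, 3 fell and 10 did not pass, where 9.33% of all tested genes rose and 5.09% fell, and 14 more lay below the filter. At an unadjusted p under 0.05 there were 3 higher and 5 lower, and the median log2 difference was -0.15. Irf1, a transcription factor of the response, had 185.7 and 175.2 against 280.3 and 273.4 (-0.57 ± 0.10; limma, adjusted p = 0.00761), and the antiviral membrane protein gene Bst2 had 311.5 and 302.7 against 470.0 and 421.6 (-0.51 ± 0.10, adjusted p = 0.00938). H2-K1, an MHC class I gene, fell by 0.34, a call lost without each array in turn (adjusted p between 0.0538 and 0.0878). Tap1, a peptide transporter, was the one that rose (0.55), and its call too was lost without each array (differences from 0.50 to 0.60). The Tap1 call was also lost with median centring and quantile normalization (adjusted p = 0.0597 and 0.0719) and kept with spike-in scaling (0.00844). Its further probe sets were dimmer and differed by 0.27 without overlap, and by -0.08 and 0.32 with overlap. With the arrays scaled to their hybridisation spike-ins, Irf1, Bst2 and H2-K1 kept a difference below 0 but no longer passed (adjusted p = 0.326, 0.463 and 0.893). Sp100, the next measured gene after Sp110 in the RefSeq order, was at 4 and 16.1 against 8.3 and 6.8, with overlap.

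Zfp352, a zinc finger gene known from the 2-cell embryo, had the smallest rise of the 5 genes. Its brighter probe set gave 36.9 and 39.2 in the knockdown against 25.1 and 18.0 in the control, a log2 difference of 0.49 or 1.4-fold. The second gave 23.9 and 31.7 against 11.1 and 9.2, a difference of 0.66. In both the knockdown arrays were the higher without overlap, and the gene ranked at 592 among the tested genes, against 1, 2, 29 and 42 for AF067061, Usp17la, Arg2 and Sp110.

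**Figure D2:**
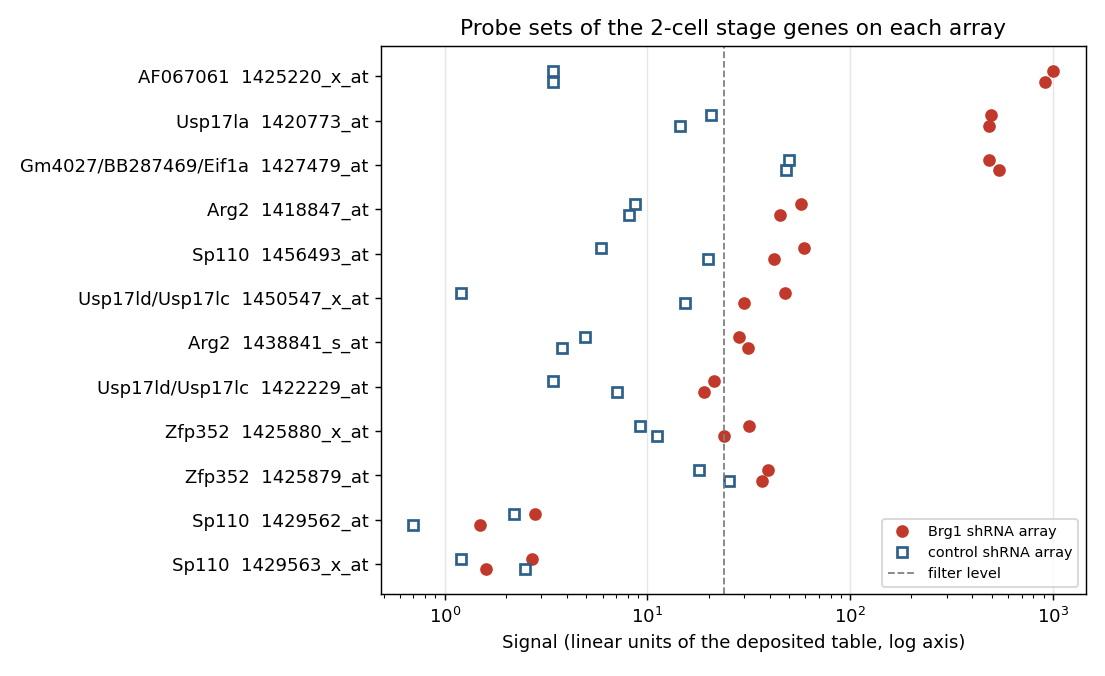
Signal of the 12 probe sets on each array on a log axis, with filled circles for the Brg1 shRNA arrays, open squares for the control shRNA arrays and a dashed line at the filter level of 23.9 signal units. Only AF067061, Usp17la and the probe set listing Gm4027 exceed 100 signal units, and the lowest 2 rows, both of Sp110, show overlapping groups.

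Over the 12 probe sets, 10 had both knockdown arrays above both control arrays. Among all 22626 probe sets that are no controls, 28.5% did so. Of the 5 genes, 4 passed limma's test as higher (all but Zfp352), where 9.33% of the 7815 tested genes did, 729 in all, and 5.09% passed as lower. In all 5 the chosen probe set was higher without overlap, where 34.3% of the tested genes were. The split of 729 higher and 398 lower genes moved with the scaling, to 622 and 598 with median centring and to 1478 and 37 with spike-in scaling. Without knockdown replicate 2, 423 genes were higher. Without either knockdown array 2 of the 5 genes passed, and Arg2 and Sp110 then lay below the filter. The same 4 genes were 2-fold or more higher without overlap, against 0.972% of the tested genes. The choice of the genes fixes these counts, and they are not read further. In all 5 genes the mean control signal was below the filter level, at the 12.3rd to 39.1st percentile of the probe sets, so each passed the filter through its knockdown arrays alone. Only 6 of the 12 probe sets reached the filter. The median log2 difference of the 5 genes was 1.32.

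**Figure D3:**
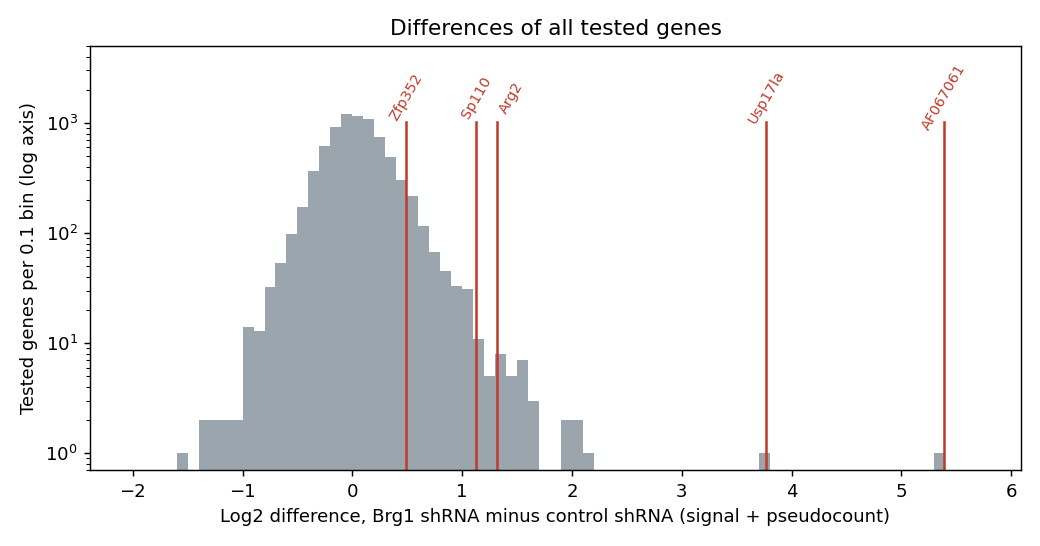
Number of tested genes per bin of 0.1 in the log2 difference between Brg1 shRNA and control shRNA arrays, on a log axis, with red lines at the 5 genes. AF067061 (5.39) and Usp17la (3.77) stand clear of all other genes, and Zfp352 (0.49) lies within the bulk.

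For each gene, the tested genes with the most similar course over the 4 arrays were found by the root mean square distance of log2 signals, centred on the control mean. AF067061 and Usp17la had no close match. Lix1, Lgals3 and Insm1 came nearest to each, at distances of 2.32 to 2.39 for AF067061 and 1.17 to 1.25 for Usp17la. Arg2 was closest to Aard (0.02), Phlda1 (0.06) and Hoxa5 (0.08), and Sp110 to Fbp1 (0.07), Zeb1 (0.12) and Anxa2 (0.14). Zfp352 was closest to St3gal2, Kcnh2 and Tril (0.02 or less). With 4 arrays in 2 groups, a small distance says little more than that the size of the difference and the gaps between replicates were alike.

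Other genes of the 2-cell stage with a probe set of their own were for the most part near the bottom of the signal range on all arrays. A list of 42 further genes of this stage was used, of which 12 had a probe set of their own and 30 had none. Among the 30, Gm4027, Usp17lc and Usp17ld were read only through the shared probe sets described above. The rest of the 30, the Zscan4 genes among them, were not analysed here. Of the 12, only Eif1a was tested, which is used in all cells and so is no marker of the stage. The remaining 11 lay below the filter, with signals between 0.4 and 20.2. In 3 of the 11 (25.5% of all probe sets below the filter did the same) the knockdown arrays were above the control arrays without overlap. Spz1, a basic helix-loop-helix factor gene, had 14.4 and 20.2 against 1.3 and 2.1. Tcstv3 had 6 and 11.0 against 2.5 and 0.8, and Spic, an ETS factor gene, had 6 and 9.7 against 1.8 and 1.2. The other probe set of Spic overlapped between the groups (10.1 and 2.6 against 13.1 and 4.1), and a second one of Pramel7 did not (1.7 and 1.6 against 0.7 and 1.2). None of the 11 was lower without overlap, and their median log2 difference was 0.13. Tdpoz1, Tcstv1, Pramel6, Pramel7, Rfpl4, Klf17, Obox2 and Obox3 had overlapping groups in the probe set chosen for each. A probe set at this level does not show whether the gene is silent.

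The measured genes nearest to AF067061 were dim as well. Gm20767, the nearest measured gene before it in the RefSeq order, had 43.9 and 40.9 in the knockdown against 4.2 and 1.1 in the control. The groups lay far apart, with a log2 difference of 1.47, the 27th rise among all probe sets, although its mean lay below the filter, so it was not tested. It was chosen after its values were seen. BC147527, on the other side, had 7.9 and 21.4 against 7.6 and 4.2, so 1 knockdown array was near the control level. Tcstv1 and Tcstv3, the next measured genes on either side, stayed at 11.0 or below.

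**Figure D4:**
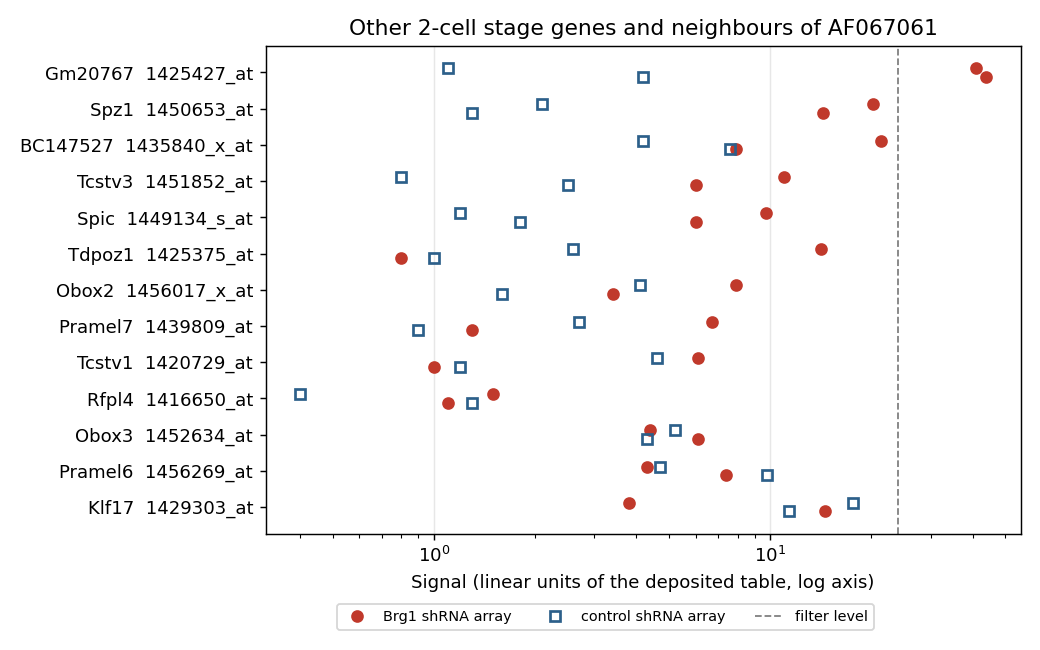
Signal on each array, on a log axis, of the 11 other 2-cell stage genes below the filter, of Gm20767 and of BC147527; filled circles are Brg1 shRNA arrays, open squares control shRNA arrays and the dashed line the filter level. Gm20767 alone has both knockdown arrays above the filter level, and most other genes overlap between the groups.

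The 13-base run was found in the windows of 42 genes, of which 6 were measured by a probe set of their own. Of the 3 that are not among the 5 genes, 2 were tested, and neither passed. Pemt had 31.6 and 44.7 against 36.8 and 50 (log2 difference -0.13; limma, adjusted p = 0.68). Zbed3 had 93.1 and 75.8 against 83.3 and 86.1 in its brightest probe set (-0.01, adjusted p = 0.975), while a dimmer one was lower, with 24.5 and 23.9 against 37.5 and 37.6. Tdpoz1, a 2-cell stage gene, had 0.8 and 14.2 against 1 and 2.6.

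Of 5 tested activators of the 2-cell program, 3 rose, 0 fell and 2 did not pass, where 9.33% of all tested genes rose. At an unadjusted p under 0.05 there were 4 higher and 0 lower. Their median log2 difference was 0.57, against 0.04 for all tested genes. Dppa2, which acts upstream of Dux, had signals of 1761.1 and 1892.7 in the knockdown against 1105.1 and 1114.6 in the control (0.71 ± 0.07, SE; limma, adjusted p = 0.000477). Its partner Dppa4 had 1398.1 and 1306.5 against 1155.7 and 1186.7, a smaller difference that did not pass (0.20 ± 0.08, adjusted p = 0.104). Dppa4 did pass with quantile normalization (0.27, adjusted p = 0.0367) and with spike-in scaling (0.51, adjusted p = 0.0489). Nelfa, a subunit of the negative elongation factor, had 752.6 and 786.8 against 511.0 and 497.3 (0.59 ± 0.08, adjusted p = 0.00219). The nuclear receptor gene Nr5a2 had 302.2 and 265.6 against 176.3 and 193.7 (0.57 ± 0.11, adjusted p = 0.0107). The calls of Dppa2, Nelfa and Nr5a2 were kept without each array in turn.

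Repressors of the program moved both ways and by small amounts. Of 20 tested, 2 rose, 2 fell and 16 did not pass, where 14.4% of all tested genes passed in either direction. At an unadjusted p under 0.05 there were 7 higher and 3 lower among the 20. Their median log2 difference was 0.08, against 0.04 for all tested genes. Setdb1, a histone H3 lysine methyltransferase gene, had 584.3 and 686.2 against 511.6 and 472.0 (0.35 ± 0.10; limma, adjusted p = 0.0462), and the histone chaperone gene Daxx had 644.1 and 696.5 against 517.1 and 542.0 (0.33 ± 0.09, adjusted p = 0.0365). Kdm1a, a histone demethylase gene, had 1217.3 and 1100.1 against 1414.9 and 1412.8 (-0.28 ± 0.08, adjusted p = 0.0416). The RNA-binding protein gene Lin28a had 1088.8 and 1077.2 against 1503.9 and 1324.1 (-0.38 ± 0.08, adjusted p = 0.018). A second probe set of Lin28a overlapped between the groups (244.5 and 243.8 against 204.2 and 338.1), and that of Kdm1a differed by -0.06. Further ones of Setdb1 gave 0.48 without overlap and 0.11 with overlap. With the mean of all probe sets Setdb1, Kdm1a and Lin28a did not pass (adjusted p = 0.0751, 0.159 and 0.128), and Daxx did (0.0294). Trim28, the corepressor that recruits SETDB1, had 3544.9 and 3527.3 against 3298.2 and 3284.9 and did not pass (0.10 ± 0.06, adjusted p = 0.292). Without knockdown replicate 2 all 4 calls were lost (adjusted p = 0.258 for Setdb1, 0.179 for Daxx, 0.229 for Kdm1a and 0.0518 for Lin28a), and without either control array 2 of the 20 genes passed. With spike-in scaling Kdm1a turned to 0.0213 and Lin28a came to -0.07 (adjusted p = 0.808), while Setdb1 and Daxx still passed.

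**Figure D5:**
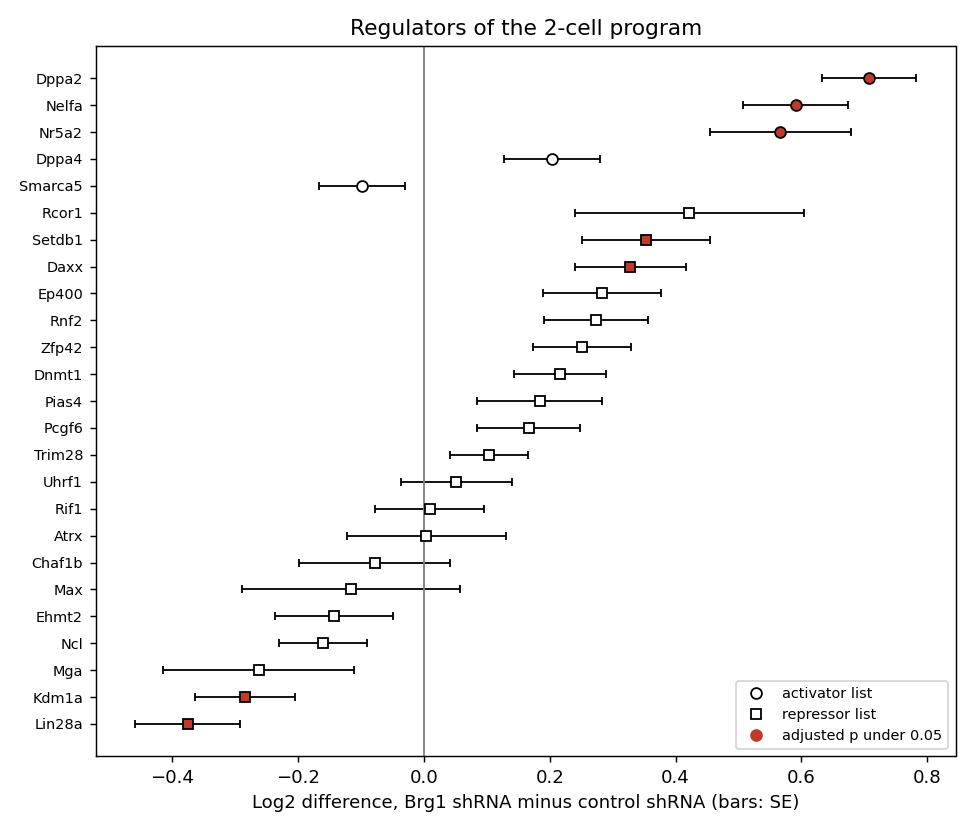
Log2 difference between Brg1 shRNA and control shRNA arrays, with its SE, for 5 activators (circles) and 20 repressors (squares) of the 2-cell program; red symbols have a limma adjusted p under 0.05. Dppa2, Nelfa and Nr5a2 lie between 0.57 and 0.71, and the 4 red repressors lie within 0.38 of 0 on either side.

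Genes of the oocyte, whose transcripts are still present in the early embryo, were mostly dim as well. Of 17 on the array, 14 lay below the filter. Of the 3 tested, Tle6 rose, 0 fell and 2 did not pass, where 9.33% of all tested genes rose and 5.09% fell. At an unadjusted p under 0.05 there were 2 higher and 0 lower. Tle6, a subunit of the maternal complex of oocytes, had 48.6 and 71.6 against 14.0 and 28.1 (0.97 ± 0.22, SE, adjusted p = 0.018 by limma). The mean control signals of Tle6 (21.05) and Zp3 (17.6) were below the filter level, so both passed the filter through their knockdown arrays. With no filter the call of Tle6 was lost (adjusted p = 0.0881). Leaving out knockdown replicate 2 or control replicate 1 ended this call (adjusted p = 0.0562 and 0.0675). Zp3, a zona pellucida gene, had 28.2 and 46.5 against 9.5 and 25.7 and did not pass (0.62, adjusted p = 0.116), and neither did Tcl1 (adjusted p = 0.26). Zp3 did pass without knockdown replicate 1 (adjusted p = 0.0329), without control replicate 2 (0.0439) and with spike-in scaling (0.00548). The best known markers of the oocyte were at the bottom of the range, with Gdf9 between 13.9 and 21.8 and Bmp15 between 0.8 and 7.6.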

How the data were processed

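RNA from 4 samples, 2 per group, was read on Affymetrix arrays. The deposited table gives each probe set an intensity in linear units, made with GCOS per the submitters' processing notes; no version or algorithm is given in the sources used here, and detection calls were not used here. All sample columns were used. Of 22690 probe sets, 64 were Affymetrix controls, 20380 had 1 gene in the platform annotation, 691 several and 1555 none. Symbols were updated by Entrez ID through RefSeq (GRCm38.p6) for 20351 of the 20380. Signals were analysed as log2(signal + 20), a scale that understates the change of dim genes. The brightest probe set stood for a gene, with _x_at ones used only where there was no other. Genes at or above the 40th percentile (23.9 signal units) were compared with limma 3.58.1 in R 4.3.3 (lmFit, eBayes with an intensity trend, two-sided, Benjamini-Hochberg over 7815 genes, threshold 0.05). The fit was tried on simulated data with changes in bright genes only, so genes as dim as the members in the control were not covered. Adjusted p-values come from this fit.

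The number of arrays limits the precision. Log2 values of the 2 knockdown arrays differed with an SD of 0.22, those of the controls with 0.20. The members and lists were chosen with earlier results of these data known. Named are both shRNA targets, the members, up to 4 tested genes per list with the smallest p, measured genes of the 2-cell list and the 3 most similar genes per member; neighbouring genes and genes sharing the 13-base run were added later. Slc2a4, the control target, lay below the filter (20.9 and 23.9 against 11.7 and 19.2). The alternatives changed pseudocount, filter, normalization, variance model, probe set choice, threshold and the replicate block, and left out each array, where the lone array is assumed to vary like the other group.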

Additional observations from a re-analysis of the deposited data

How the results depend on the processing

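Differences are relative to the deposited scale: scaling to 18 hybridisation spike-in probe sets shifted the median over the tested genes from 0.04 to 0.31 on the log2 scale. Of the 12 member probe sets, 10 stayed above 0 in each of the 11 alternatives recomputed for them. In these 10 the groups did not overlap. Leaving out an array, changing the pseudocount or adding a replicate block therefore could not turn their sign, and only the changes of normalization could. AF067061 lay between 4.53 and 6.18 and Usp17la between 3.20 and 4.19. The Gm4027 probe set lay between 2.64 and 3.21 and the brighter Zfp352 probe set between 0.34 and 0.67. The 2 dim probe sets of Sp110 turned below 0, the first with median centring (-0.0035), the second with median centring (-0.0302) and quantile normalization (-0.0127), and with 1 array left out they ranged from -0.0039 to 0.0971 and from -0.0231 to 0.0628. Eif1a turned to -0.0308 with the mean of all probe sets and Kdm1a to 0.0213 with spike-in scaling. With no filter 324 genes were higher and 109 lower and 0 of the repressors passed; with spike-in scaling these were 1478, 37 and 7, and at a threshold of 0.01 they were 291, 102 and 0. Median centring gave 598 lower genes (622 higher) and 2 repressors, and without the intensity trend there were 219 lower genes and 0 repressors. The mean of all probe sets left 2 repressors and 2 genes of the 2-cell list, and the stricter filter 2 of that list. Leaving out 1 array gave 423 to 756 higher and 191 to 446 lower genes, 2 to 4 of the 2-cell list, 0 to 6 repressors and 3 activators. The cause of these shifts was not tested. The replicate block gave 778 higher and 409 lower genes, 4 of the 2-cell list, 5 repressors and 3 activators, and of the genes recomputed singly it changed the call of Zp3 alone (adjusted p = 0.0389). Deviations of same-numbered arrays correlated at -0.14, and a crossed pairing, added after seeing the data, gave 930 and 548. A fit of every probe set called 1240, against 1127. For most control signals of the members, brightness near the bottom of the range limits what a fold can show.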

Other observations

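Along the RefSeq gene order, the 2 nearest measured genes on each side of the 5 genes made 20 neighbours, of which 12 lay below the filter. Of the 8 tested, 1 rose, 2 fell and 5 did not pass, where 14.4% of all tested genes passed in either direction. Before Arg2, with 3 genes between, Plekhh1 rose (37.5 and 58.8 against 24.1 and 18.3, log2 difference 0.71 ± 0.20, SE, adjusted p = 0.0403 by limma). The mean control signal of Plekhh1 was below the filter level, so it passed the filter through its knockdown arrays. After Arg2, with 2 genes between, Rdh11, a retinol dehydrogenase gene, fell (110.0 and 95.6 against 153.4 and 152.6, -0.50 ± 0.12, adjusted p = 0.0275). Vti1b, which directly follows Arg2 among the measured genes, had 660.8 and 716.6 against 636.7 and 628.3 and did not pass (adjusted p = 0.38). After Zfp352, with 8 genes between, Elavl2, an RNA-binding protein gene, fell (269.2 and 225.4 against 376.2 and 357.5, -0.54 ± 0.11, adjusted p = 0.0125). Before Zfp352, Cdkn2b (27.8 and 17.5 against 12.2 and 7.3) and Cdkn2a (11.5 and 23.0 against 9.8 and 7.8) were higher without overlap. Both lay below the filter and were not tested. The call of Elavl2 was lost without knockdown replicate 2 (adjusted p = 0.0598). With the mean of all probe sets Plekhh1 came to 0.23 (0.308) and Elavl2 to -0.24 (0.187), and quantile normalization ended the call of Plekhh1 (0.0603). With no filter none of these 3 passed (0.126 for Plekhh1, 0.0835 for Rdh11 and 0.052 for Elavl2). With spike-in scaling neither Elavl2 nor Rdh11 passed (0.393 and 0.42). Plekhh1 and Rdh11 lost theirs without that array (0.183 and 0.118), without control replicate 1 (0.0574 and 0.0823) and without control replicate 2 (0.144 and 0.0729). These neighbours were chosen by position after the member values were known.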
